A study of Mus musculus with 8 samples.

Results

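The ATF and CREB genes encode basic leucine zipper (bZIP) transcription factors, and 10 of them were taken here: Atf1, Atf2, Atf3, Atf4, Atf5, Atf6, Atf6b, Atf7, Creb1 and Crem. A gene was counted as measured where the array's annotation gave a transcript cluster (a set of probes along 1 transcript) that symbol and no other, and where a gene had several such clusters the brightest on average was used. By this rule 8 of the 10 genes were measured, of 30176 genes in all. The only clusters of Atf1 and Atf7 also carried the symbols Atf1-ps and Npff, so these genes are given no value.

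Whole lungs of 4 Atf4wt/wt and 4 Atf4D/D mice were profiled on Clariom D mouse arrays to ask which transcripts differ in a tumour-free lung once Atf4 has been deleted. All mice were on a C57BL/6 background, carried tamoxifen-inducible Cre under Rosa26, which is active in all tissues, and received tamoxifen by oral gavage. In Atf4D/D mice Cre removes the exons of Atf4 that lie between loxP sites, and in Atf4wt/wt mice it has no such target, so that Cre and tamoxifen are shared by both groups. Lungs were taken at 4 weeks after tamoxifen from mice of 13 weeks, 3 males and 1 female per genotype, and each array was 1 animal. The groups are called wild-type and knockout below, and the signals of a group are given in the order of replicates 1 to 4. Values are log2 signals, changes are knockout minus wild-type, and p-values measure the spread between animals. A gene was called where the adjusted p from limma was at most 0.05 and the fold was above 1.5. Since whole lung was used, less RNA per cell cannot be told apart from fewer cells that hold it.

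ATF and CREB proteins bind DNA as dimers through a basic region and a leucine zipper, and many recognise the cAMP response element (CRE), with the letters TGACGTCA. They divide by what switches them on. CREB1 and CREM answer to cAMP and calcium through phosphorylation, ATF2 and ATF7 to the stress kinases JNK and p38, ATF6 and ATF6B to unfolded protein in the endoplasmic reticulum (ER), and ATF4 and ATF5 to the integrated stress response, in which upstream reading frames let their mRNAs be translated when overall translation is reduced. ATF3 is an inducible repressor of the same stress programmes. Much of this control acts on the protein, which an array does not measure.

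The arrays had median log2 signals of 5.21 to 5.29. Calls were made for 182 of 65956 transcript clusters (0.276%), with the knockout higher in 151 and lower in 31. Over genes, 141 of 30176 were called (0.467%), of which 123 were higher (0.408%) and 18 lower (0.0597%). The median change of all genes was -0.02. Among cell type marker lists, platelet markers were higher in the knockout for 9 of 9 measured genes, with 3 called and a mean signal of 8.14 to 10.35 in wild-type and 10.69 to 11.88 in knockout arrays. Neutrophil markers were higher for 12 of 12, with 0 called by limma and 8 at an unadjusted p under 0.05 (7.46 to 8.11 against 8.25 to 10.86), and erythroid markers for 3 of 4, with 1 called (6.20 to 6.42 against 7.63 to 8.67). Fibroblast markers were lower for 7 of 9, with 2 called, the collagen genes Col1a1 and Col3a1 (10.02 to 10.36 against 9.07 to 9.60). Changes in this list ran from -2.46 for Col3a1 to 0.34 for Pi16. The markers of alveolar type 2 cells (16.67 to 16.84 against 16.34 to 16.74), type 1 cells (13.11 to 13.39 against 13.07 to 13.15), endothelium (14.67 to 15.06 against 14.89 to 15.02), airway (16.61 to 16.90 against 16.27 to 16.71), lymphocytes (7.03 to 7.79 against 7.18 to 7.68) and macrophages (8.18 to 8.82 against 8.46 to 8.67) overlapped between genotypes. In these lists limma called 0 genes. At an unadjusted p under 0.05, 3 of 5 type 2 genes and 1 of 6 lymphocyte genes were lower. At the same p 2 of 4 endothelial genes were higher, beside 13.5% of all genes in either direction.

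Atf4 and Atf5 were lower in the knockout lungs, by 2.44-fold and 2.59-fold, and none of the other 6 measured genes was called. Thus 2 of 8 measured genes were called, both lower, beside 0.467% of all genes called and 0.0597% called lower. Atf4 is the gene that was deleted, and the remaining call in the family is Atf5. The same 2 genes were at an unadjusted p under 0.05, beside 13.5% of all genes, and were the ones whose groups did not overlap, beside 9.0% of all genes. The median change of the 8 genes was 0.06, and that of the 6 without a call 0.08, against -0.02 for all genes.

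**Figure D1:**
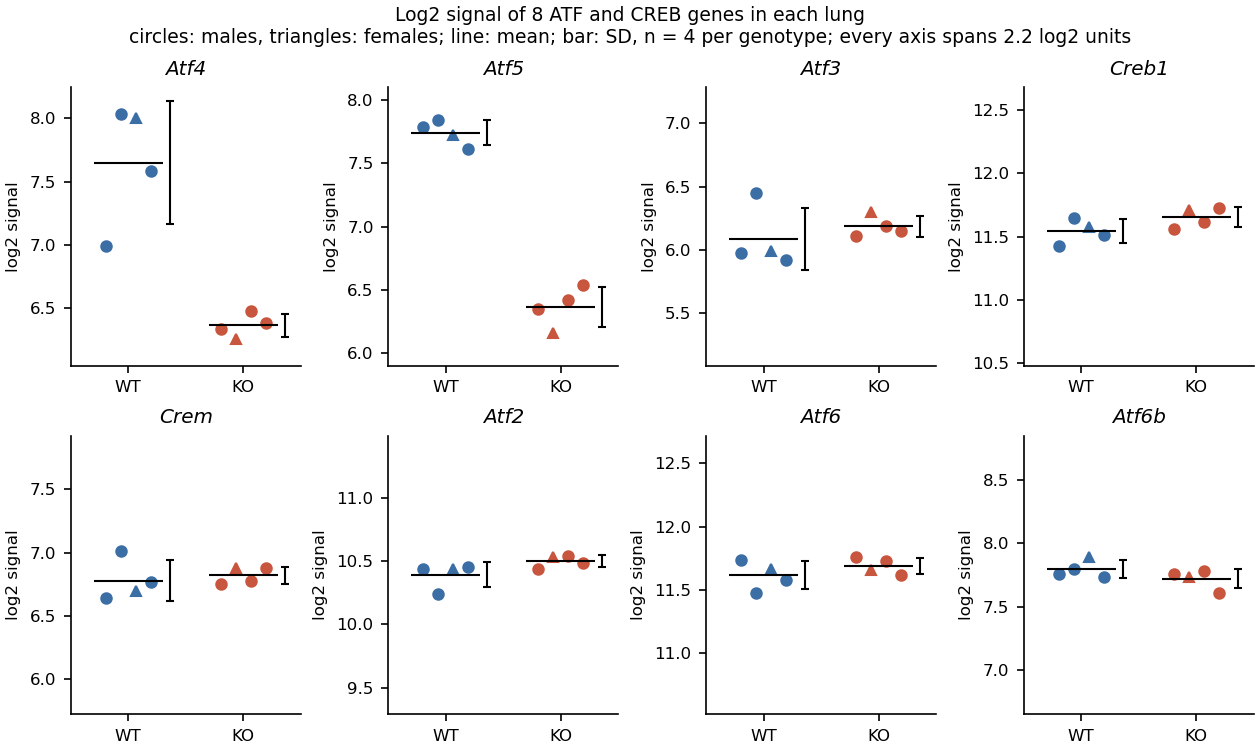
Log2 signal of the 8 measured ATF and CREB genes in each array of the 4 wild-type (WT, blue) and 4 knockout (KO, red) lungs, with circles for males, triangles for females, a line for the mean and a bar for the SD; every axis spans the same number of log2 units. For Atf4 and Atf5 all knockout arrays lie under all wild-type arrays, and in the other 6 genes the groups overlap.

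Atf4 encodes the effector of the integrated stress response, which drives genes of amino acid synthesis and uptake. Its log2 signals were 6.99, 8.03, 8.0 and 7.58 in the wild-type lungs and 6.34, 6.26, 6.48 and 6.38 in the knockout lungs. The wild-type lungs were spread widely and the knockout lungs lay close together, and the lowest wild-type lung, replicate 1, was still 0.51 above the highest knockout lung, so that each lung lay on the side its label gives. The group means were 7.65 ± 0.48 (SD, n = 4) and 6.36 ± 0.09 (SD, n = 4). The change was -1.29 (SE 0.21, 95% interval -1.75 to -0.82), with an adjusted p of 0.0485 in limma. The knockout signal was 41.0% of the wild-type signal, with an interval of 29.6% to 56.7%. It is not known here which exons the probes of this cluster lie in, nor what signal the cluster gives with no transcript, so the percentage is of signal and is not the share of alleles left. By a different measure, RT-qPCR of Atf4 mRNA in whole lung, liver and spleen, the study reports nearly complete excision.

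The Atf4 call lay close to its threshold. The adjusted p was 0.301 (change -1.14) in the males alone and 0.0717 with sex as a covariate, and over the alternatives tried with limma it ranged from 0.00902 to 0.301. Wild-type replicate 1 widened the spread: without it the change was -1.51 with an adjusted p of 0.00902, while leaving out any other single lung ended the call, with changes of -1.33 to -1.16.

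Atf5 encodes a bZIP factor close to ATF4 that serves cell survival and, in mammalian cells, the mitochondrial unfolded protein response. Its log2 signals were 7.79, 7.84, 7.72 and 7.61 in the wild-type lungs and 6.35, 6.16, 6.42 and 6.54 in the knockout lungs. Both groups were tight, and the lowest wild-type lung stood 1.07 above the highest knockout lung. The means were 7.74 ± 0.10 (SD, n = 4) and 6.37 ± 0.16 (SD, n = 4), and the change was -1.37 (SE 0.09, 95% interval -1.58 to -1.17), with an adjusted p of 0.00348 in limma. The knockout signal of Atf5 was 38.6% of the wild-type signal, with an interval of 33.5% to 44.6%. Only 1 of 30176 genes had a smaller p than Atf5, whereas 164 genes (0.543%) had a lower change.

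Unlike Atf4, Atf5 did not separate wild-type replicate 1 from the other wild-type lungs: that lung had the lowest Atf4 signal of its group and an Atf5 signal of 7.79, second only to the 7.84 of replicate 2. Leaving out each lung in turn left Atf5 called in 8 of 8 fits, with changes of -1.43 to -1.30 and adjusted p-values of 0.00152 to 0.0317. In the males alone the Atf5 change was -1.31 with an adjusted p of 0.0392. The Atf5 call was lost in 2 of 18 alternatives, among them an ordinary test of group means without limma (adjusted p 0.141). That test takes the spread of each cluster alone. Of 9 fibroblast markers 7 were lower in the knockout together with Atf5 (mean signal 10.02 to 10.36 in wild-type and 9.07 to 9.60 in knockout lungs). The largest falls were those of Col3a1 (-2.46) and Col1a1 (-2.03), while Dcn (0.08) and Pi16 (0.34) were higher. Platelet and neutrophil markers and 3 of 4 erythroid markers were higher, and lymphocyte markers overlapped between genotypes. The part of these cell types in the change of Atf5 was not tested.

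**Figure D2:**
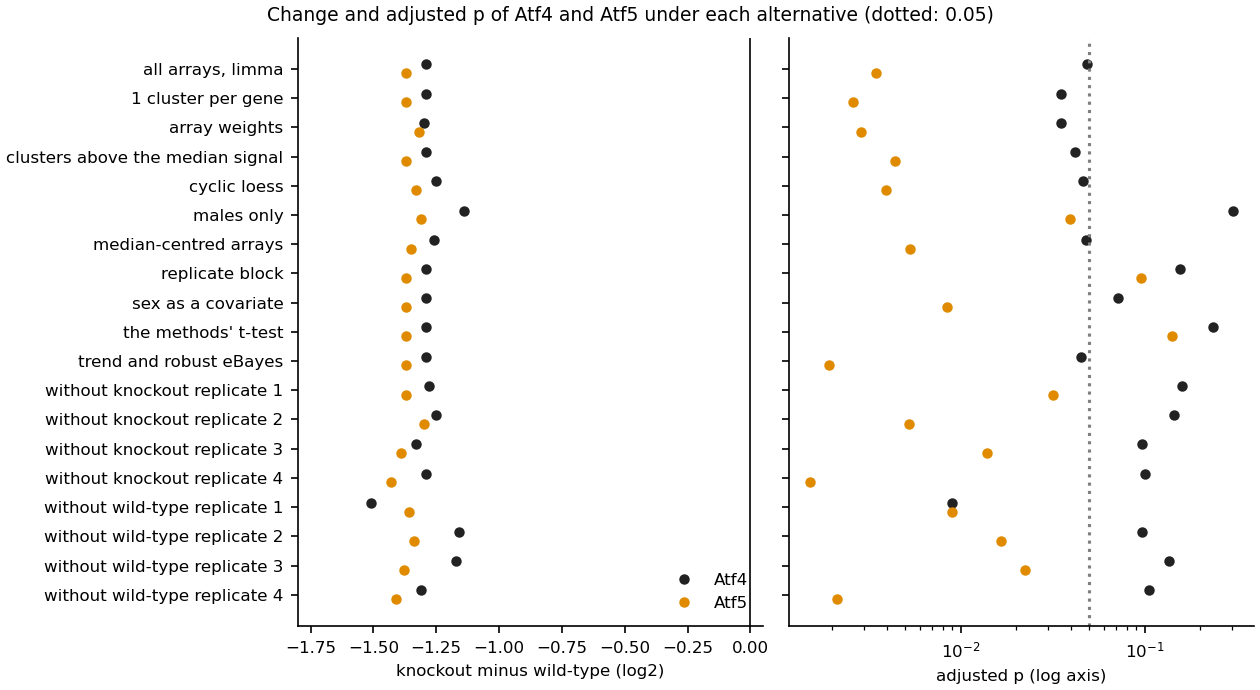
Change of Atf4 (black) and Atf5 (orange) in log2 units on the left and adjusted p on a log axis on the right, for the analysis of all arrays and each alternative, with a dotted line at 0.05. All changes of Atf4 lie between -1.51 and -1.14 and those of Atf5 between -1.43 and -1.30, and the adjusted p of each gene lies on both sides of 0.05, with that of Atf4 above it in 11 of 18 alternatives and that of Atf5 in 2.

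The sequences before the start sites of Atf4 and Atf5 are printed because these genes fell together, and that of Atf3 because among the family windows it alone held a searched motif. RefSeq windows of 250 bases before to 50 after each start (build GRCm38.p6) were found for 8 of the 10 genes, 9 windows in all, with 2 starts for Atf5. Both strands were searched for the CRE, for its short form TGACGTNN (short CRE), which every CRE also holds, and for the C/EBP-ATF response element (CARE), TGATGNAA, at which ATF4 dimers with C/EBP factors bind. Over 32851 windows of this length 1.79% held a CRE, 7.491% a short CRE and 3.969% a CARE. The 120 bases before each start are given 5′ to 3′ on the strand of the gene, and the capitals in Atf3 mark a CARE on the opposite strand at -110 to -103 and the fixed letters of a short CRE at -10 to -3.
Atf4, chr15:80255064-80255183, plus strand: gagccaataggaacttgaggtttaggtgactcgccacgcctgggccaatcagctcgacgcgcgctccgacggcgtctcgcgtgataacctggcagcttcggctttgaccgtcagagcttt
Atf5 first start, chr7:44816659-44816778, minus strand: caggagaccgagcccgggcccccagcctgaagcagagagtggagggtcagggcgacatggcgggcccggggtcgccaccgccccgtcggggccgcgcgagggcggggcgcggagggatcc
Atf5 other start, chr7:44815659-44815778, minus strand: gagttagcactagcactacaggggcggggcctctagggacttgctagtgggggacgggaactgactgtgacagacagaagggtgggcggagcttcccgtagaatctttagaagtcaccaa
Atf3, chr1:191183334-191183453, minus strand: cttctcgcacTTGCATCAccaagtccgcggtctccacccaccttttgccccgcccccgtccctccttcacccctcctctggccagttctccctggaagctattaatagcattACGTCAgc
Neither window of Atf5 nor that of Atf4 held any of these motifs, and 0 of the 8 genes had a full CRE. This describes the windows alone and says nothing of sites elsewhere or of binding.

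Atf3 is an immediate early gene that stress, cytokines and growth factors induce within hours, and its protein represses many genes that ATF4 or AP-1 activate. Its log2 signals were 5.98, 6.45, 5.99 and 5.92 in the wild-type lungs and 6.11, 6.30, 6.19 and 6.15 in the knockout lungs. Wild-type replicate 2 was the highest of all 8 lungs, and the other 3 wild-type lungs were below every knockout lung. The means were 6.09 ± 0.25 and 6.19 ± 0.08 (SD, n = 4 each), a change of 0.10 (SE 0.12, 95% interval -0.16 to 0.37) with an adjusted p of 0.786 in limma. Without wild-type replicate 2 the change of Atf3 was 0.22, with an adjusted p of 0.324 and an unadjusted p of 0.011 in limma. Over all alternatives the change ran from 0.03 to 0.22. Atf3 was not called, and in the fit of all 8 lungs its interval reached a fold of 1.5 in neither direction. Its signals lay not far above 5.25, the median signal of all clusters.

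Creb1 encodes the cAMP response element binding protein, the target of protein kinase A (PKA) and of calcium-dependent kinases. It had log2 signals of 11.43, 11.65, 11.58 and 11.51 in the wild-type lungs and 11.56, 11.71, 11.62 and 11.73 in the knockout lungs. The groups overlapped, although the highest of all were knockout replicates 4 and 2. The means were 11.55 ± 0.09 and 11.66 ± 0.08 (SD, n = 4 each), and the change was 0.11 (SE 0.07, 95% interval -0.05 to 0.27), with an adjusted p of 0.586 in limma.

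Crem encodes both activators and, from an internal promoter, the inducible repressor ICER, and 1 cluster for the gene cannot tell these products apart. Its log2 signals were 6.64, 7.01, 6.70 and 6.77 in the wild-type lungs and 6.75, 6.88, 6.78 and 6.88 in the knockout lungs. The highest and the lowest lung were both wild-type, and the knockout lungs lay between them. The means were 6.78 ± 0.16 and 6.82 ± 0.07 (SD, n = 4 each), and the change was 0.04 (SE 0.09, 95% interval -0.16 to 0.23), with an adjusted p of 0.903 in limma. Its sign was not fixed by these lungs, since the change was -0.01 when wild-type replicate 1 was left out, 0.12 when replicate 2 of that group was, and -0.01 in the males alone.

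Around CREB1, 1 of 18 measured coactivators and kinases was called: Prkar2b, a regulatory subunit of PKA, was 4.3-fold higher in the knockout. Its log2 signals were 9.39, 9.70, 9.52 and 10.81 in the wild-type lungs and 12.26, 12.15, 11.94 and 11.48 in the knockout lungs, with a change of 2.10 (SE 0.30) and an adjusted p of 0.0382 in limma. The groups did not overlap, and wild-type replicate 4, the highest of its group, was also the wild-type lung with the highest mean over the platelet markers, at 10.35. The part of platelets in the Prkar2b change was not tested. The call was lost in 9 of 18 alternatives, among them the males alone (adjusted p 0.273) and the fits without wild-type replicate 2 or 3 or without knockout replicate 1, 2 or 3 (adjusted p 0.0829 to 0.141). The list's median change was 0.12, and 6 of its genes were higher and 2 lower at an unadjusted p under 0.05, beside 13.5% of all genes.

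Of 13 measured targets of the cAMP response, 0 were called by limma, and 3 were higher and 1 lower at an unadjusted p under 0.05, with a median change of 0.18. The smallest p-values were those of Dusp1, a phosphatase of MAP kinases, with a change of 0.68 (SE 0.15, adjusted p 0.135), and Pde4b, a phosphodiesterase that degrades cAMP, with a change of 0.51 (SE 0.12, adjusted p 0.138). In both genes every knockout lung was above every wild-type lung, which 9.0% of all genes showed in either direction.

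Atf2 encodes the partner of JUN that JNK and p38 phosphorylate. Its log2 signals were 10.44, 10.24, 10.44 and 10.45 in the wild-type lungs and 10.44, 10.53, 10.54 and 10.48 in the knockout lungs. Wild-type replicate 2 stood below the other 7 lungs, which spanned 10.44 to 10.54. The means were 10.39 ± 0.10 and 10.50 ± 0.05 (SD, n = 4 each), and the change of 0.11 (SE 0.07, 95% interval -0.05 to 0.26) had an adjusted p of 0.588 in limma and became 0.05 without wild-type replicate 2. Among 12 measured genes of the stress MAP kinase list 0 were called by limma, and 3 were higher and 0 lower at an unadjusted p under 0.05, with a median change of 0.11. Dusp10, a phosphatase of JNK and p38, had a change of 0.31 (SE 0.10, adjusted p 0.25), with groups that overlapped. Mapk14, which encodes p38 alpha, had a change of 0.15 (SE 0.06, adjusted p 0.323), with groups that did not overlap.

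Atf6 encodes the ER membrane sensor whose cytosolic part is released by Golgi proteases to switch on chaperone genes, and Atf6b its paralogue. Atf6 had log2 signals of 11.74, 11.48, 11.67 and 11.58 in the wild-type lungs and 11.76, 11.66, 11.73 and 11.62 in the knockout lungs. Atf6b had log2 signals of 7.76, 7.80, 7.89 and 7.73 in the wild-type lungs and 7.76, 7.73, 7.78 and 7.61 in the knockout lungs. The groups of both genes overlapped, and Atf6b was the 1 gene of the 6 without a call whose mean was lower in the knockout. The change of Atf6 was 0.07 (SE 0.07, 95% interval -0.09 to 0.24, means 11.62 ± 0.11 and 11.69 ± 0.07, SD, n = 4 each), with an adjusted p of 0.749 in limma. That of Atf6b was -0.07 (SE 0.06, 95% interval -0.22 to 0.07, means 7.79 ± 0.07 and 7.72 ± 0.08, SD, n = 4 each), with an adjusted p of 0.713.

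Of 14 measured genes that process ATF6 or are its targets, 0 were called by limma, with a median change of -0.16. At an unadjusted p under 0.05, 0 were higher and 4 lower, beside 13.5% of all genes in either direction. Hsp90b1, which encodes the ER chaperone GRP94, had a change of -0.40 (SE 0.10, adjusted p 0.165), and Dnajc3, an ER co-chaperone that also inhibits the kinase PERK, had -0.21 (SE 0.08, adjusted p 0.347). In Hsp90b1 every knockout lung was below every wild-type lung, and in Dnajc3 the groups overlapped.

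**Figure D3:**
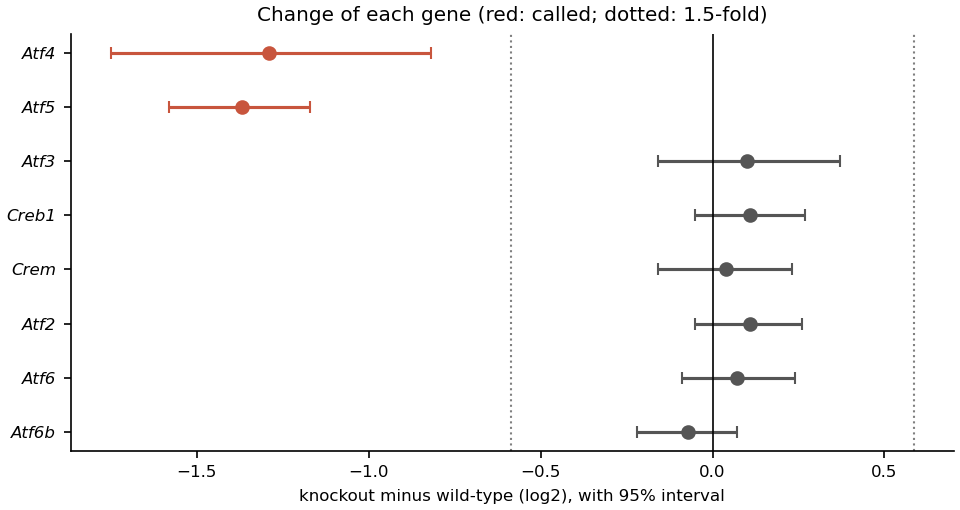
Change of each measured ATF and CREB gene in log2 units (knockout minus wild-type, 4 lungs each) with its 95% interval from limma, red where called, and dotted lines at a fold of 1.5. The intervals of the 6 genes without a call lie between -0.22 and 0.37, inside the dotted lines, and those of Atf4 and Atf5 lie below -0.58.

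For the 6 genes without a call the change in array signal, on the deposited scale, was therefore bounded closely. Their changes lay between -0.07 and 0.11, their intervals between -0.22 and 0.37, and their SDs between 0.05 and 0.25, so that a fold of 1.5 in either direction (0.58 in log2) was outside the interval of each. The largest fold among them was 1.08, and 15727 of 30176 genes had changes in the same range. Of these genes 5 had the higher mean in the knockout and 1 the lower, and each of them had groups that overlapped.

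ATF4 and ATF5 act with C/EBP factors, which share their zipper class. Of 6 measured C/EBP genes, 0 were called by limma, and 0 were higher and 2 lower at an unadjusted p under 0.05, with a median change of -0.14. Cebpa, a factor of lung epithelium and myeloid cells, had a change of -0.54 (SE 0.10, adjusted p 0.0706), and Cebpg, which pairs with ATF4, had -0.24 (SE 0.08, adjusted p 0.259). In both the groups did not overlap. Without wild-type replicate 1, the lung with the lowest wild-type Atf4, the change of Cebpa was -0.61 with an adjusted p of 0.0349, in a range of 0.0349 to 0.362 over the alternatives with limma.

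The genes listed here as known targets of ATF4 were not called either. This list does not hold Col1a1, at which the study reports ATF4 binding. Col1a1 stood among the fibroblast markers and was called lower (change -2.03, adjusted p 0.016 in limma). Of 19 measured targets, 0 were called by limma, and 2 were higher and 3 lower at an unadjusted p under 0.05, with a median change of -0.04 and a range of -0.56 to 0.48. Some targets were dim, so that a fall could go unseen. The mean signals of Fgf21 (4.25), Trib3 (4.80), Slc7a11 (5.29) and Mthfd2 (5.44) lay below or near 5.25, the median signal of all clusters. Aldh18a1, an enzyme of proline synthesis, had the lowest change, -0.56 (SE 0.08), with signals of 6.30 to 6.58 in wild-type and 5.87 to 6.07 in knockout lungs. Its adjusted p of 0.0396 in limma passed the threshold, but its fold of 1.48 did not, and without wild-type replicate 1 it did, at -0.63 with an adjusted p of 0.0255. Nupr1, a small stress-induced chromatin protein, had a change of -0.44 (SE 0.11, adjusted p 0.175), with groups that did not overlap. Of 6 mitochondrial chaperones and proteases listed here as targets of ATF5, 0 were called by limma and 1 was lower at an unadjusted p under 0.05, with a median change of -0.11. Lonp1, a matrix protease, had a change of -0.15 (SE 0.06, adjusted p 0.409), and Hspe1, the co-chaperonin of the matrix, had -0.25 (SE 0.14, adjusted p 0.516).

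Related bZIP genes outside the family were not called. Of 12 measured CREB-related genes, 0 were called by limma, and 1 was higher and 2 lower at an unadjusted p under 0.05, with a median change of -0.01. Creb3l1, an ER-anchored factor that promotes collagen secretion, had a change of -0.51 (SE 0.20, adjusted p 0.347), and Crebzf, which binds host cell factor, had -0.16 (SE 0.07, adjusted p 0.382). Of 10 measured AP-1 and MAF genes, which share dimer partners with the ATF factors, 0 were called by limma, and 2 were higher and 1 lower at an unadjusted p under 0.05, with a median change of 0.02. Maff, a small MAF protein without an activation domain, had a change of 0.31 (SE 0.12, adjusted p 0.332), and Fosl2, a partner of JUN, had 0.50 (SE 0.19, adjusted p 0.337). Some genes stand in more than 1 list, so the counts of the lists cannot be added. The count of each list at an unadjusted p under 0.05 is to be read beside 13.5% of all genes, in either direction. Likewise, groups that did not overlap were seen in 9.0% of all genes.

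**Figure D4:**
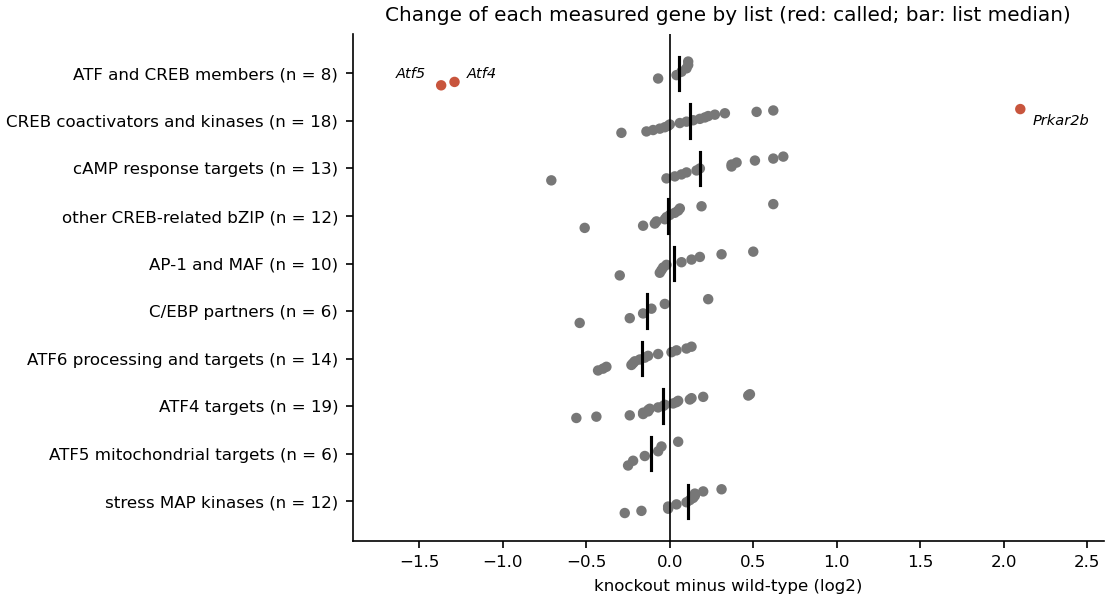
Change of each measured gene in log2 units (knockout minus wild-type) for the ATF and CREB genes and the 9 lists around them, with the number measured, red points for called genes and a black bar for the median. Atf4, Atf5 and Prkar2b are the called genes, and the medians of the 9 lists lie between -0.16 and 0.18.

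The genes whose profiles over the 8 lungs were most like those of Atf4 and Atf5 were found by the root mean square distance between profiles, each centred on its own mean. Nearest to Atf4 were Col6a3, a chain of collagen VI (distance 0.28), the predicted gene Gm16418 (0.289) and Loxl1, a cross-linker of elastin (0.295). Nearest to Atf5 were Cpxm1, a member of the carboxypeptidase family (0.219), and again Col6a3 (0.256) and Loxl1 (0.266). Atf4 and Atf5 were at 0.311 from each other, rank 8 among the genes nearest to Atf4 and rank 7 among those nearest to Atf5. This distance depends on the size of the fall as well as on the order of the lungs, and the 8 values of each gene come from the same arrays.

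Of these neighbours, Col6a3 (change -1.36, adjusted p 0.0465 in limma) and Cpxm1 (-1.15, adjusted p 0.0232) were called lower, and Loxl1 (-1.16, adjusted p 0.063) and Gm16418 (-0.90, adjusted p 0.15) were not. Wild-type replicate 1 was the lowest wild-type lung in Atf4, Col6a3, Gm16418 and Loxl1 but not in Atf5 or Cpxm1. Among the knockout lungs replicate 2, the female, was the lowest in Atf4, Atf5 and each of these 4 genes. Over all 30176 genes that lung was the lowest of its group in 6278 and the highest in 11666. The 4 genes were chosen for profiles like those of Atf4 or Atf5, so a shared order was favoured by the choice. The call of Col6a3 was lost in 11 of 18 alternatives, among them the omission of any single lung but wild-type replicate 1 (adjusted p 0.057 to 0.153). That of Cpxm1 was lost in 6, among them the omission of knockout replicate 1 (0.102) and of wild-type replicates 3 (0.0944) or 4 (0.056).

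**Figure D5:**
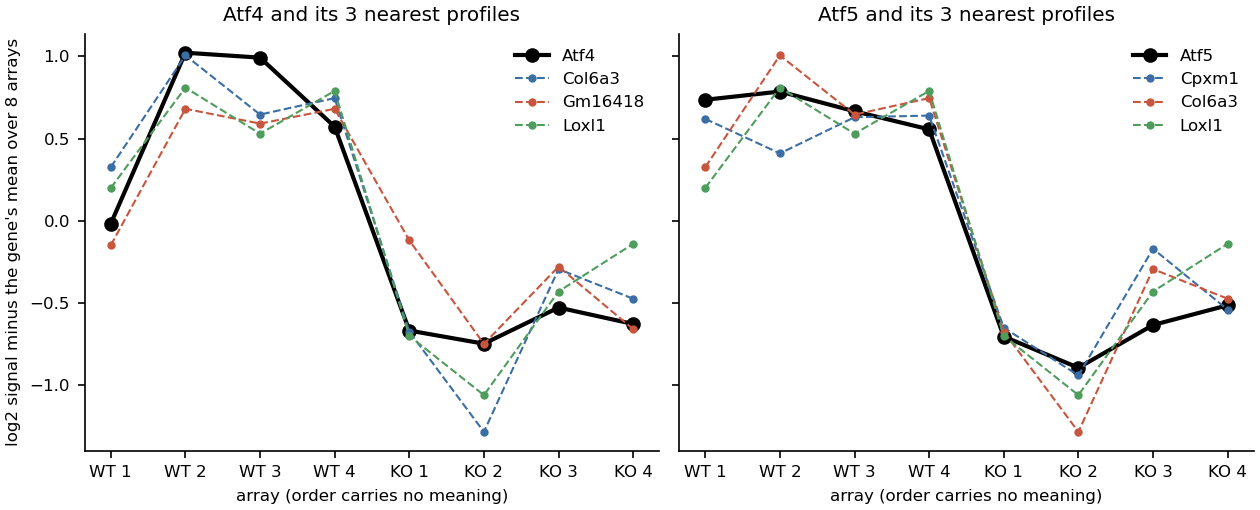
Log2 signal minus the gene's mean over the 8 arrays, for Atf4 (left) and Atf5 (right) in black and their 3 nearest genes in colour, with the arrays along the horizontal axis in an order that carries no meaning. Wild-type replicate 1 lies under the other wild-type lungs in Atf4, and not in Atf5.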

How the data were processed

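The study amplified and labelled total RNA of 8 lungs, 4 per genotype, for Clariom D arrays. The deposited values are log2 signals that the authors made by robust multi-array averaging (RMA) of a variant not given in the sources used here. RMA brings all arrays to 1 distribution, so a shift shared by most transcripts would not appear. On all arrays 457 clusters exceed 16, more than 16-bit scans hold, so signals were stretched at some step and folds are on the deposited scale. Scanner files and detection calls were not analysed here, and the number of arrays limits the precision.

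The labels gave groups and replicate numbers. Of 65956 clusters, all tested, 30638 had 1 symbol in the platform annotation, 2176 several and 33142 none. The comparison of genotypes was fitted in R 4.3.3 by limma 3.58.1, with eBayes after lmFit, two-sided p-values, no covariate and adjustment by Benjamini and Hochberg over all clusters, with the thresholds of the study's methods. The scripts, which also used Python 3.11.15, were tested on simulated data. Members, marker lists and the 9 lists of related genes were chosen with earlier results of these data known. Of each list the called genes are named, otherwise the 2 with the smallest p, and for each called member the 3 genes with the nearest profile. Alternatives were median centring, cyclic loess, array weights, a trended robust prior, sex as a covariate, males alone and a replicate block. Others were a filter on dim clusters, 1 cluster per gene, a looser threshold and leaving out each lung. A further alternative was an ordinary test of group means without limma, which the study's array methods do not name.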

Additional observations from a re-analysis of the deposited data

Results flagged for a closer look

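In 7 of 58 groups of 4 lungs, over 29 named genes, 1 lung lay so far from the rest that its gap to the nearest, divided by the range of the group, was above Dixon's 95% critical value for 4 values. Chance alone marks about 1 in 20 groups. For Atf2 the value was 0.94 in the wild-type group, where replicate 2 was low at 10.24 against 10.44 to 10.45 in the others. For Atf3 it was 0.858 in the wild-type group, where replicate 2 was high at 6.45 against 5.92 to 5.99. The same lung gave the value of 0.901 for Cpxm1, where it was low at 7.42 against 7.63 to 7.65. In the wild-type group, replicate 1 was low for Gm16418 (8.37 against 9.11 to 9.20, value 0.891), and replicate 4 was high for Cebpg (10.22 against 10.03 to 10.05, value 0.901). In the knockout group, replicate 2 was high for Crebzf (10.29 against 10.18 to 10.19, value 0.885), and replicate 3 was high for Aldh18a1 (6.07 against 5.87 to 5.90, value 0.836). For Atf4, Atf5, Atf6, Atf6b, Creb1 and Crem no lung passed the critical value.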

How the results depend on the processing

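Of 18 alternatives, Atf5 kept its call in 16 and Atf4 in 7, and Atf2, Atf3, Atf6, Atf6b and Creb1 kept their direction without a call in all 18. In limma the Atf4 call was lost in the males alone (-1.14, adjusted p 0.301) and with sex as a covariate (-1.29, 0.0717). It was also lost with the replicate number as a block (-1.29, 0.155) and in 7 of 8 fits without 1 lung (-1.33 to -1.16). The ordinary test of group means did not call Atf4 either (-1.29, adjusted p 0.236). Its call was kept without wild-type replicate 1 (-1.51). The Atf5 call was lost with the replicate block in limma (-1.37, adjusted p 0.096) and with the ordinary test (-1.37, adjusted p 0.141). Crem turned sign in the males alone (-0.01) and without wild-type replicate 1 (-0.01 to 0.12 over the fits without 1 lung). The members called were then 1 in the males alone, 1 with sex as a covariate and 0 with the replicate block. They were 0 with the ordinary test and 1 to 2 without 1 lung. The clusters called went from 182 to 4, 126, 0, 0 and 8 to 266 under these same settings, the lowest without replicate 3 of the wild-type or 1 of the knockout, and to 315 at an adjusted p of at most 0.1. Same-numbered lungs had correlations of -0.19 to 0.06 in their deviations from the group means, and lungs of different numbers -0.185 to 0.152. So few lungs cannot decide whether the numbers pair them. The causes were not tested. Each measured member had 1 cluster, so another cluster of the same gene could not be tried.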

Other observations

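Among the wild-type lungs, replicate 2 was the highest or the lowest in 7 of the 8 measured ATF and CREB genes (5 highest, 2 lowest), beside 55.9% of all genes. It was the highest in Atf3, Atf4, Atf5, Creb1 and Crem and the lowest in Atf2 and Atf6. Replicate 3, the female, was at an end of its group in 1 of the 8 genes, Atf6b, beside 40.5% of all genes. These counts come from the arrays that also give the comparisons of genotype, and no test was made of them.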
